A study of Macaca fascicularis with 2 samples.

Results

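The cells described here are cytotoxic T cells with little CD4 antibody signal, found in a blood preparation enriched for T cells that carry both CD4 and CD8 (double-positive, DP). They were chosen by measured values: at least 1 unique molecular identifier (UMI, standing for 1 captured RNA molecule) of *CD3E*, at least 3 of the granzyme gene *GZMB*, no fewer of *GZMB* than of *GZMK*, at most 1 of *FCER1G*, none of *CD79A* or *FOXP3*, a low count of the CD4 antibody tag and a high count of the CD8α antibody tag. The rule found 186 of the 8830 cells kept after quality filters, or 2.11% (exact binomial 95% interval 1.82 to 2.43%). They are called CD4-low cytotoxic cells below. The values that chose them are given as descriptions, and none of them is a result.

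The cells came from 1 untreated cynomolgus monkey (*Macaca fascicularis*) aged 10 years, from fresh peripheral blood. Magnetic beads against CD4 and then beads against CD8 were used to enrich them, so the cells had gone through a CD4 selection before their tags were read. One preparation gave a library of genes, read from the 5′ end, and a library of the 2 tags of the same cells. With 1 animal and 1 preparation no comparison has a replicate, so no test was made, and every interval below covers counting error only.

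Cytotoxic T lymphocytes kill infected or transformed cells by releasing granules that hold perforin, which opens the target membrane, and granzymes, which start its death. Most belong to the CD8 lineage, whose αβ receptor reads peptides on MHC class I, and many of those that circulate after repeated stimulation carry receptors first described on natural killer (NK) cells. CD4 cytotoxic cells use the same granules but belong to the MHC class II lineage, and in macaques CD4 cells that gain CD8α are a known source of DP cells.

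Levels are given as CPM, the UMIs of a gene per 1000000 gene UMIs of a group of cells, with exact Poisson 95% intervals. A gene was called higher or lower when the levels differed at least 2-fold, which is a log2 ratio of 1 or more, provided the gene had 50 or more UMIs in the pair of groups and was seen in 10% or more of the cells of the group where it was higher. The main comparison was with 890 cells that passed the same gene rule but had a high CD4 tag and a lower CD8 tag, called CD4-high cytotoxic cells. A further 163 cells passed the gene rule with high counts of both tags and are called both-high cytotoxic cells. Finally, 100 T cells shared the tag window of the CD4-low cytotoxic cells but had no UMI of *GZMB*, *GZMK* or *CCL5*, and are called CD4-low cells without granzyme.

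The 186 CD4-low cytotoxic cells held 648591 gene UMIs, with a median of 3235.5 per cell against 3145 over all kept cells. The median was 3581.5 in CD4-high cytotoxic cells, 5405 in both-high cytotoxic cells and 3926 in CD4-low cells without granzyme. Mitochondrial UMIs made up a median of 3.22% in the CD4-low cytotoxic cells. The doublet caller called 0 cells as doublets. The 530 kept cells with the highest doublet scores included 6 of the CD4-low cytotoxic cells (3.23%), 93 of the CD4-high (10.4%) and 51 of the both-high cytotoxic cells (31.3%).

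The CD4 tag of the CD4-low cytotoxic cells ran from 30 UMIs up to the limit of the rule, with a median of 100. Their CD8 tag ran from 511 to 5224 UMIs with a median of 1884. The CD4-high cytotoxic cells had medians of 349.5 and 472 UMIs for the 2 tags, and the both-high cells 443 and 1937. Of the 1248 cells that passed the gene rule, 14.9% fell in the CD4-low window and 9 fell in no window. As a background level, 121 B cells in the same preparation had a median CD4 tag of 135 UMIs and a median CD8 tag of 201. The median CD4 tag of the CD4-low cytotoxic cells thus lay below that of these B cells. Some of the 121 cells were rich in granule RNA and their CD8 tag reached 2421 UMIs, so not all of them need lack both proteins.

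**Figure D1:**
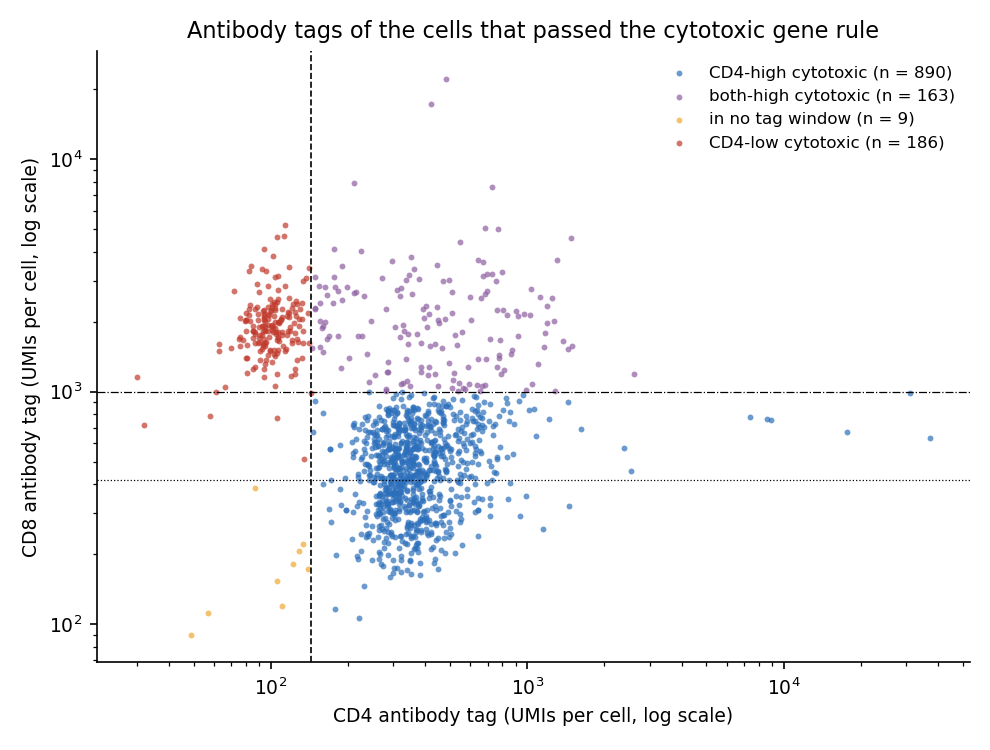
Antibody tag counts of each cell that passed the cytotoxic gene rule, with the CD4 tag on the x axis and the CD8 tag on the y axis, both in UMIs per cell on log scales. Points are single cells coloured by group, the dashed line is the CD4 tag limit, the dotted line the CD8 tag minimum of the CD4-low cells and the dash-dotted line the CD8 tag limit between CD4-high and both-high cells. The 186 CD4-low cytotoxic cells lie to the left of the CD4 tag limit, at a median of 100 UMIs, and the CD4-high and both-high cytotoxic cells to its right, at medians of 349.5 and 443.

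The tag window held other cells as well. Of 418 kept cells in it, 310 had *CD3E* RNA without the markers the rule left out. The CD4-low cytotoxic cells were 60% of these 310 and the cells without granzyme 32.3%. The other 24 included 10 cells with more *GZMK* than *GZMB*.

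The cutoff on the CD4 tag fell inside a group of similar cells. The 25 members within 20 tag UMIs below the limit had *CD8A* at 1153 CPM (95% interval 935 to 1406) and 1 *CD4* UMI. The 16 cells within 20 UMIs above it, with an equally high CD8 tag, had *CD8A* at 1292 CPM (1015 to 1622) and 0 *CD4* UMIs. Only 5 members had a CD8 tag as low as that of CD4-high cytotoxic cells, and their *CD8A* was 812 CPM (405 to 1453). The 9 cells left out for a CD8 tag under the limit had *CD8A* at 513 CPM (221 to 1010) and 3 *CD4* UMIs. Members with 3 to 5 *GZMB* UMIs numbered 7 and had *CTSW* at 1083 CPM, and the 8 cells left out for 1 or 2 *GZMB* UMIs had it at 1111 CPM.

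Coreceptor RNA differed in the direction of the tags. *CD8A*, which encodes the CD8α chain that binds MHC class I beside the T cell receptor, stood at 1152 CPM (1071 to 1237) in CD4-low cytotoxic cells. It was 208 CPM (193 to 223) in CD4-high cytotoxic cells, 663 CPM (612 to 717) in both-high cells and 474 CPM (408 to 547) in CD4-low cells without granzyme. The level in CD4-low cytotoxic cells was thus 5.54-fold that of the CD4-high cells, a log2 ratio of 2.47 (2.32 to 2.62). The gene for CD8β was not analysed here.

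*CD4*, the coreceptor for MHC class II, was close to undetected. A single *CD4* UMI was found in the 186 CD4-low cytotoxic cells, or 1.54 CPM (0.039 to 8.59), against 578 UMIs and 164 CPM (151 to 178) in the 890 CD4-high cells. The log2 ratio was -6.73 with a wide interval of -12.04 to -4.25, since 1 side rests on 1 molecule. Both-high cytotoxic cells lay between them at 79.5 CPM (62.6 to 99.5).

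Read per cell, 177 of the 186 CD4-low cytotoxic cells had *CD8A* without *CD4* RNA, 1 had both and 8 had neither. Among CD4-high cytotoxic cells 219 of 890 (24.6%) had both RNAs, and among both-high cells 42 of 163 (25.8%). A cell without a UMI may still express the gene, so these shares limit detection only. After each cell was thinned to 2200 UMIs, *CD8A* was seen in 93.3% (88.6 to 96.5%) of CD4-low cytotoxic cells, in 37.1% (33.8 to 40.4%) of CD4-high cytotoxic cells and in 1.71% of B cells, whose median depth was 4517 UMIs. Without thinning these shares were 95.7%, 53.0% and 6.61%.

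Of genes of the helper lineage, *CD40LG*, the ligand through which helper cells license B cells and dendritic cells, gave 1 UMI in CD4-low cytotoxic cells (1.54 CPM, 0.039 to 8.59) against 92.4 CPM (82.7 to 103) in CD4-high cytotoxic cells. Its log2 ratio was -5.91 (-11.21 to -3.42). *ZBTB7B*, which encodes the factor ThPOK that commits thymocytes to the CD4 lineage, was 15.4 CPM (7.39 to 28.4) against 33.5 CPM (27.7 to 40.1). *GATA3*, the factor of type 2 helper cells, was 44.7 CPM (29.9 to 64.2) against 73.4 CPM (64.8 to 82.9), within the 2-fold limit. Thus 2 of the 3 helper genes that passed the minimum were called lower, but the intervals of *ZBTB7B* overlapped and its log2 ratio turned to 1.39 when members were limited to the 8 cells with a CD4 tag of at most 70 UMIs.

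In this main comparison 4241 genes passed the minimum and their median log2 ratio was -0.02. Of these, 35 (0.825%) were called higher in CD4-low cytotoxic cells and 49 (1.16%) lower. The members' counts in the lists below are to be read beside these percentages. Both counts changed with the minimum share of cells and with a stricter CD4 tag limit, and the values are given in the closing section.

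**Figure D2:**
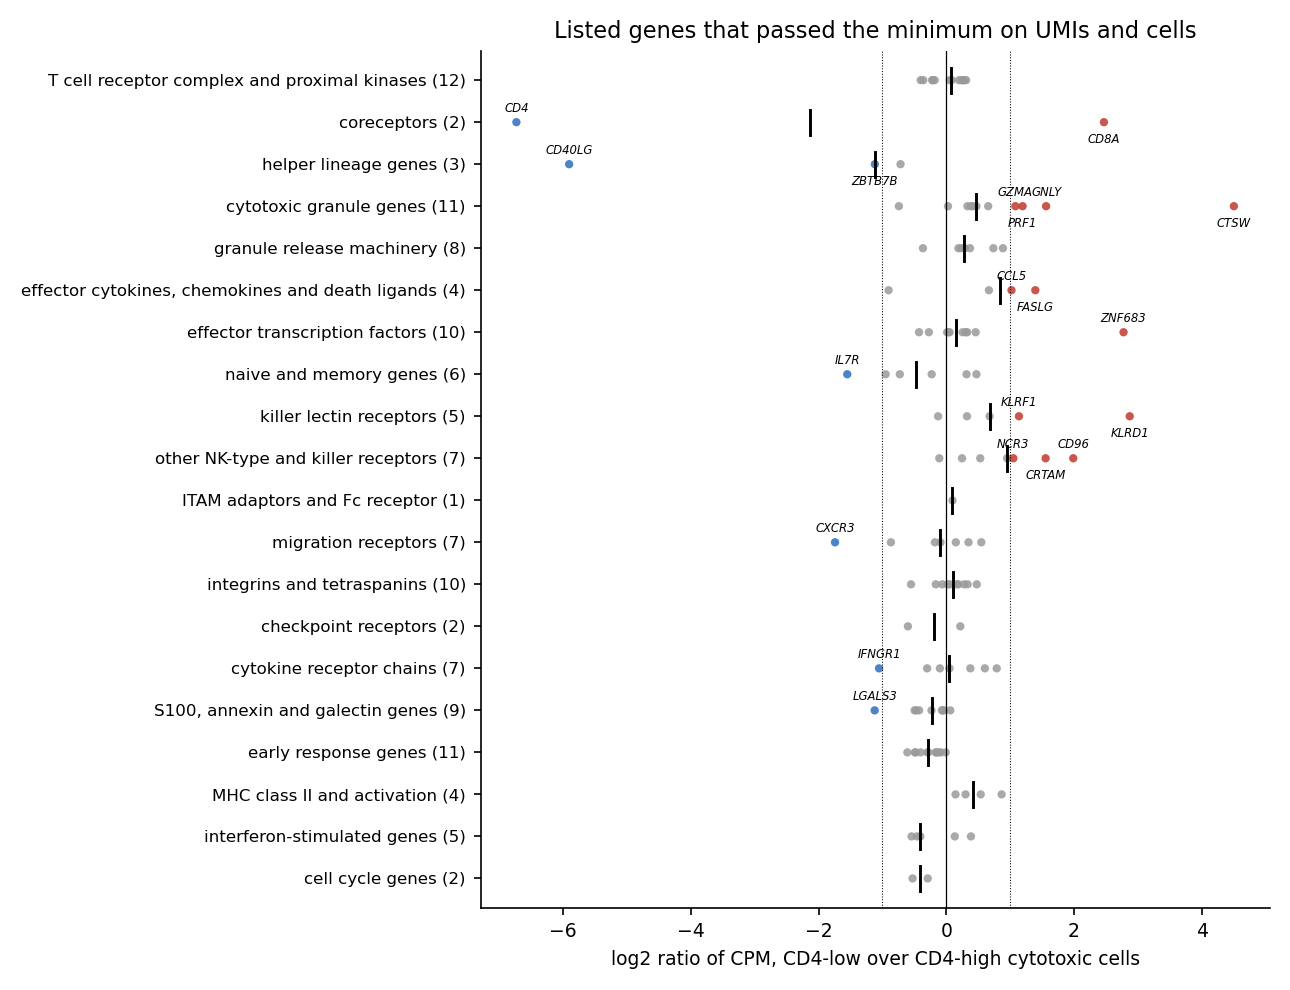
Each point is 1 listed gene that passed the minimum, placed by its log2 ratio of CPM between CD4-low and CD4-high cytotoxic cells on the x axis, with 1 row per gene list. Dotted lines mark 2-fold, genes beyond them are coloured and named, black bars mark each list's median, and the number of genes stands beside the list. Among granule genes 4 of 11 lie beyond the upper line, and the T cell receptor genes lie between -0.40 and 0.31.

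The 12 genes of the T cell receptor complex and its first kinases were at like levels in both groups. None passed 2-fold in either direction and their median log2 ratio was 0.07. *CD3D*, a signalling chain of the complex, was 1420 CPM (1330 to 1515) against 1338 CPM (1300 to 1377). *TRAC*, the constant region of the receptor α chain, was 455 CPM (404 to 510) against 374 CPM (354 to 395). *LCK*, the kinase carried by CD4 and CD8, was 574 CPM (517 to 635) against 650 CPM (624 to 677). *CD3E* was used by the rule.

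Of 11 granule genes that passed the minimum, 4 were called higher and 0 lower, 10 had a log2 ratio above 0, and the median was 0.47 against -0.02 over all genes tested. The rule itself used *GZMB* and *GZMK* of these 11, and both are among the 10.

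*PRF1*, which encodes perforin, was 554 CPM (498 to 614) against 242 CPM (226 to 258) in CD4-high cytotoxic cells, a log2 ratio of 1.20 (1.01 to 1.38). *GNLY*, the pore-forming antimicrobial protein granulysin, was 631 CPM (571 to 695) against 213 CPM (198 to 229), a log2 ratio of 1.56 (1.39 to 1.74). *GZMA*, a granzyme that cleaves after basic residues, was 234 CPM (199 to 275) against 111 CPM (99.9 to 122), a log2 ratio of 1.08 (0.80 to 1.36). For all 3 the intervals of the levels did not overlap, but *GZMA* fell under 2-fold in 2 of 12 alternative settings, to 0.25 at the lowest.

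The largest ratio among granule genes belonged to *CTSW*, which encodes cathepsin W, a cysteine protease of cytotoxic lymphocytes. It was 328 CPM (286 to 376) in CD4-low and 14.5 CPM (10.8 to 19.0) in CD4-high cytotoxic cells, or 22.7-fold higher, with a log2 ratio of 4.51 (4.06 to 4.98). *CTSW* did not mark the cytotoxic state within the tag window, since CD4-low cells without granzyme held still more of it, 622 CPM (546 to 705).

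Other granule genes differed less. *NKG7*, a granule membrane protein needed for efficient killing, was 3170 CPM (3034 to 3310) against 2284 CPM (2234 to 2334), a log2 ratio of 0.47. *CST7*, the protease inhibitor cystatin F, was 1587 CPM (1491 to 1686) against 1189 CPM (1154 to 1226) (log2 ratio 0.42). *SRGN*, the proteoglycan serglycin that packs granule proteins, was 1736 CPM (1636 to 1841) against 1703 CPM (1660 to 1746), whose intervals overlap. *CMA1*, a chymase, was the only one below 0, at 66.3 CPM (48.0 to 89.3) against 111 CPM (100 to 122). The rule's own *GZMB* was 5746 CPM against 4390 CPM.

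None of the 8 tested genes of granule release passed 2-fold, and their median log2 ratio was 0.28. *RAB27A*, which docks granules at the membrane, was 140 CPM (113 to 172) against 115 CPM (104 to 127). *UNC13D*, which primes them for fusion, was 46.3 CPM (31.2 to 66.0) against 59.5 CPM (51.8 to 68.2). *LYST*, a regulator of lysosome traffic, had the largest log2 ratio at 0.89 (0.38 to 1.37).

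Among secreted and surface effectors 2 of 4 tested genes were called higher and 0 lower. *CCL5*, a chemokine stored in cytotoxic cells, was 2394 CPM (2277 to 2517) against 1178 CPM (1143 to 1215), a log2 ratio of 1.02 (0.94 to 1.11) that fell under 2-fold in 4 of 12 alternative settings, to 0.94 at the lowest. *FASLG*, the ligand of the death receptor Fas, was 46.3 CPM (31.2 to 66.0) against 17.6 CPM (13.5 to 22.5). *IFNG*, the type 1 effector cytokine interferon γ, was 58.6 CPM (41.5 to 80.4) against 36.9 CPM (30.8 to 43.8), under 2-fold. *LTB*, lymphotoxin β, was lower at 139 CPM (112 to 171) against 259 CPM (243 to 277), a log2 ratio of -0.90.

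**Figure D3:**
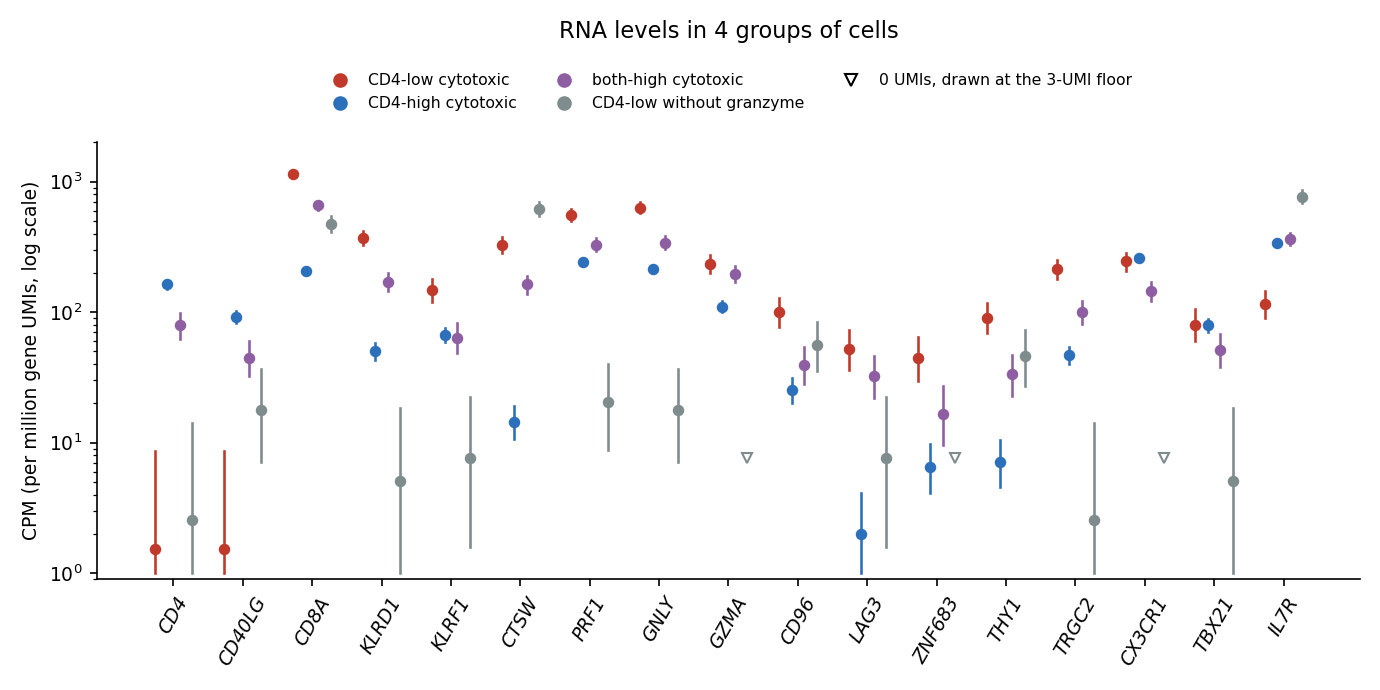
CPM of the genes the text turns on in 4 groups of cells, on a log scale, with bars for exact Poisson 95% intervals (counting error only). Open triangles mark groups at 0 UMIs, drawn at the floor of 3 UMIs, and intervals that reach below 1 CPM are clipped there. *CD8A* is highest and *CD4* at 1.54 CPM in CD4-low cytotoxic cells, and *CTSW* is highest in CD4-low cells without granzyme.

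Receptors shared with NK cells were among the genes with the larger ratios. Of 5 killer lectin receptor genes tested 2 were called higher, and of 7 other NK-type receptor genes 3 were, with median log2 ratios of 0.68 and 0.95. None was called lower. *KLRD1*, which encodes CD94, the partner chain of the NKG2 receptors that read HLA-E, was 370 CPM (325 to 420) against 50.5 CPM (43.3 to 58.4), or 7.33-fold, with a log2 ratio of 2.87 (2.59 to 3.16). *KLRF1*, the activating receptor NKp80, was 148 CPM (120 to 181) against 67.2 CPM (58.9 to 76.3), and its log2 ratio of 1.14 fell under 2-fold in 2 of 12 alternative settings, to 0.93 at the lowest.

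*KLRC1*, the inhibitory NKG2A chain that pairs with CD94, was rare. It gave 5 UMIs in 5 CD4-low cytotoxic cells and 0 UMIs in CD4-high cells, or 9.06-fold higher with the latter set to a floor of 3 UMIs for the group. This value leaves out the counting error of the 5 UMIs, so it is not a minimum. *KLRG1*, an inhibitory receptor of differentiated effector cells, was 173 CPM (142 to 208) against 138 CPM (126 to 151). *KLRK1*, the activating receptor NKG2D, was 179 CPM (148 to 215) against 112 CPM (101 to 123). *KLRB1*, which encodes CD161, was 128 CPM (102 to 159) against 140 CPM (128 to 153), and its intervals overlapped.

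*CD96*, a receptor for nectin-like ligands, was 100 CPM (77.3 to 128) against 25.2 CPM (20.3 to 31.0), a log2 ratio of 1.99 (1.51 to 2.47). *CRTAM*, an adhesion receptor of activated cytotoxic cells, was 50.9 CPM (35.0 to 71.5) against 17.3 CPM (13.2 to 22.2). *NCR3*, the receptor NKp30, was 119 CPM (93.7 to 148) against 57.3 CPM (49.6 to 65.7), and was under 2-fold in 1 of 11 alternative settings. *CD226*, the activating counterpart of *CD96*, was 55.5 CPM (38.9 to 76.8) against 59.8 CPM (52.0 to 68.5) and did not separate the groups.

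Effector transcription factors were mostly at like levels in both groups. Of 10 genes tested 1 was called higher and 0 lower, with a median log2 ratio of 0.16. The one was *ZNF683*, which encodes Hobit, a factor of long-lived effector and resident T cells. It was 44.7 CPM (29.9 to 64.2) against 6.52 CPM (4.13 to 9.78), a log2 ratio of 2.78 (1.94 to 3.63). *TBX21*, which encodes T-bet, the main type 1 factor, was 80.2 CPM (59.9 to 105) against 79.4 CPM (70.3 to 89.2). *HOPX*, a marker of cytotoxic effector cells, was 405 CPM (358 to 458) against 391 CPM (370 to 412), and *PRDM1*, which encodes Blimp-1, was 74.0 CPM (54.6 to 98.1) against 72.3 CPM (63.7 to 81.7). *RUNX3*, which silences *CD4* in the CD8 lineage, was 156 CPM (127 to 189) against 113 CPM (102 to 125), a log2 ratio of 0.46.

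Of 6 naive and memory genes that passed the minimum 1 was called lower and 0 higher, 2 had a log2 ratio above 0, and the median was -0.48. *IL7R*, the receptor for the survival cytokine IL-7, was 116 CPM (91.0 to 145) against 338 CPM (320 to 358), a log2 ratio of -1.55 (-1.91 to -1.21). *CD27*, a costimulatory receptor lost late in differentiation, went the other way at 412 CPM (364 to 464) against 297 CPM (279 to 315). *CCR7*, a chemokine receptor for lymph node entry, and *LEF1*, a factor of naive cells, were seen in too few cells of either group to pass the minimum, at 20.04 and 15.4 CPM against 46.2 and 37.4 CPM.

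Homing receptors were mostly alike. *CX3CR1*, the fractalkine receptor of circulating cytotoxic effector cells, was 245 CPM (209 to 286) against 261 CPM (244 to 278). *CXCR3*, which guides type 1 cells to inflamed tissue, was the only one of 7 called, and it was lower at 17.0 CPM (8.47 to 30.3) against 56.7 CPM (49.1 to 65.1). None of 10 integrin and tetraspanin genes passed 2-fold. *ITGB2*, the β2 integrin chain, was 1634 CPM (1537 to 1736) against 1462 CPM (1423 to 1503).

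Of the checkpoint receptors, *LAG3*, an inhibitory receptor related to CD4, had a log2 ratio of 4.72 (3.53 to 6.14), with 34 UMIs in 29 CD4-low cytotoxic cells and 7 in 7 CD4-high cells. Its 41 UMIs in both groups together were under the minimum of 50, so it is in no count. *PDCD1*, which encodes PD-1, was 69.4 CPM (50.6 to 92.8) against 105 CPM (94.7 to 116). *TIGIT*, an inhibitory receptor that shares ligands with *CD96*, was 134 CPM (107 to 165) against 115 CPM (104 to 127). *HAVCR2* and *CTLA4* had 0 UMIs in CD4-low cytotoxic cells, where a floor of 3 UMIs is 4.63 CPM.

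All 11 early response genes tested had a log2 ratio below 0, with a median of -0.28 and a range of -0.61 to -0.01. *FOS* was 1818 CPM (1715 to 1925) against 1973 CPM (1927 to 2020). Of 9 S100, annexin and galectin genes 8 were below 0, with a median of -0.23, and 1, *LGALS3*, was called lower at 103 CPM (80.1 to 131) against 225 CPM (209 to 241). The difference in *LGALS3* was under 2-fold in 2 of 12 alternative settings. *S100A4*, a calcium-binding protein of effector and memory cells, was 4858 CPM (4690 to 5031) against 6846 CPM (6760 to 6933). *IFNGR1*, a chain of the interferon γ receptor, was the only called gene of 7 cytokine receptor chains, at 17.0 CPM (8.47 to 30.3) against 35.2 CPM (29.2 to 41.9), and it was under 2-fold in 5 of 11 alternative settings. None of 5 interferon-stimulated, 4 MHC class II and activation, 2 cell cycle or 2 checkpoint genes that passed the minimum was called.

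Outside the lists, the symbol with the largest log2 ratio was *TRAV8-6*, a variable segment of the receptor α chain, described with the receptors below. *THY1*, a surface glycoprotein best known from mouse T cells, was 91.0 CPM (69.2 to 117) against 7.09 CPM (4.59 to 10.5), a log2 ratio of 3.68 (2.98 to 4.42). *ADAMTS7*, a secreted metalloprotease, had 1.70 (1.18 to 2.20), *MYL9*, a myosin light chain, 1.67 (0.82 to 2.48), and *PDGFRB*, a receptor tyrosine kinase, 1.54 (0.85 to 2.21). *MYO5A*, *PPIL4*, *SLC38A1* and *FYN* followed with log2 ratios of 1.28, 1.23, 1.21 and 1.18. An unnamed gene, ENSMFAG00000000257, exceeded all named genes at 947 CPM (873 to 1025) against 21.8 CPM (17.2 to 27.3), a log2 ratio of 5.44 (5.09 to 5.80).

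On the lower side, *CAPG*, an actin-capping protein, was 10.8 CPM (4.34 to 22.2) against 52.7 CPM (45.4 to 60.9), a log2 ratio of -2.29 (-3.62 to -1.22). *SLAMF1*, a costimulatory receptor of T cells, was 24.7 CPM (14.1 to 40.1) against 111 CPM (99.9 to 122), a log2 ratio of -2.16 (-2.99 to -1.45). *COX7A1*, *UPP1*, *CFP* and *USH1C* had log2 ratios of -2.06, -2.03, -1.91 and -1.89. *FSCN1*, *ADAM15*, *CSF1* and *ARMC10* had -1.74, -1.72, -1.64 and -1.56, and *ADAM15* turned to 1.12 in the 8 cells with a CD4 tag of at most 70 UMIs. The calls of *SLAMF1*, *UPP1* and *ADAMTS7* were lost in 1 of 12 alternative settings, at log2 ratios of -0.33, -0.37 and 0.80, and that of *SLC38A1* in 1 of 11, at 0.87. The unnamed gene ENSMFAG00000028841 gave 888 UMIs in 181 CD4-high cytotoxic cells but 7 UMIs, all in 1 cell, in CD4-low cytotoxic cells.

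The same tag contrast was made in T cells without *GZMB*, *GZMK* or *CCL5* RNA, comparing 100 CD4-low with 5131 CD4-high cells. This comparison was added after the data had been seen, and each set of log2 ratios is given for itself. Of 3500 genes tested 50 (1.43%) were called higher in the CD4-low cells and 169 (4.83%) lower, with a median log2 ratio of -0.14. *CD8A* had a log2 ratio of 2.75 (2.51 to 2.97) there and 2.47 between the cytotoxic groups. *CTSW* had 3.02 (2.82 to 3.22) and 4.51, *CD96* 2.54 (1.83 to 3.19) and 1.99, and *THY1* 2.62 (1.82 to 3.34) and 3.68. On the lower side *CD4* had -5.34 and -6.73, *CD40LG* -2.08 and -5.91, and *SLAMF1* -2.18 and -2.16. These 7 genes were chosen after their values were seen.

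Not all genes had the same direction in the 2 settings. *GPR183*, a receptor for oxysterols, had a log2 ratio of -1.55 (-2.36 to -0.85) in cells without granzyme and 0.55 (0.02 to 1.05) between the cytotoxic groups, and *IFI6*, an interferon-stimulated gene, -1.09 (-1.82 to -0.44) and 0.39 (0.12 to 0.64). *CD74*, the MHC class II invariant chain, had a log2 ratio of 2.36 (2.04 to 2.66) in cells without granzyme and 0.87 (0.59 to 1.14) between the cytotoxic groups. *IL7R* had -0.20 (-0.37 to -0.04) without granzyme and -1.55 (-1.91 to -1.21) between the cytotoxic groups. *KLRD1*, *KLRF1* and *CRTAM* did not pass the minimum in cells without granzyme, where *KLRD1* gave 2 UMIs in the 100 CD4-low cells. The difference between the 2 sets of ratios was not tested.

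**Figure D4:**
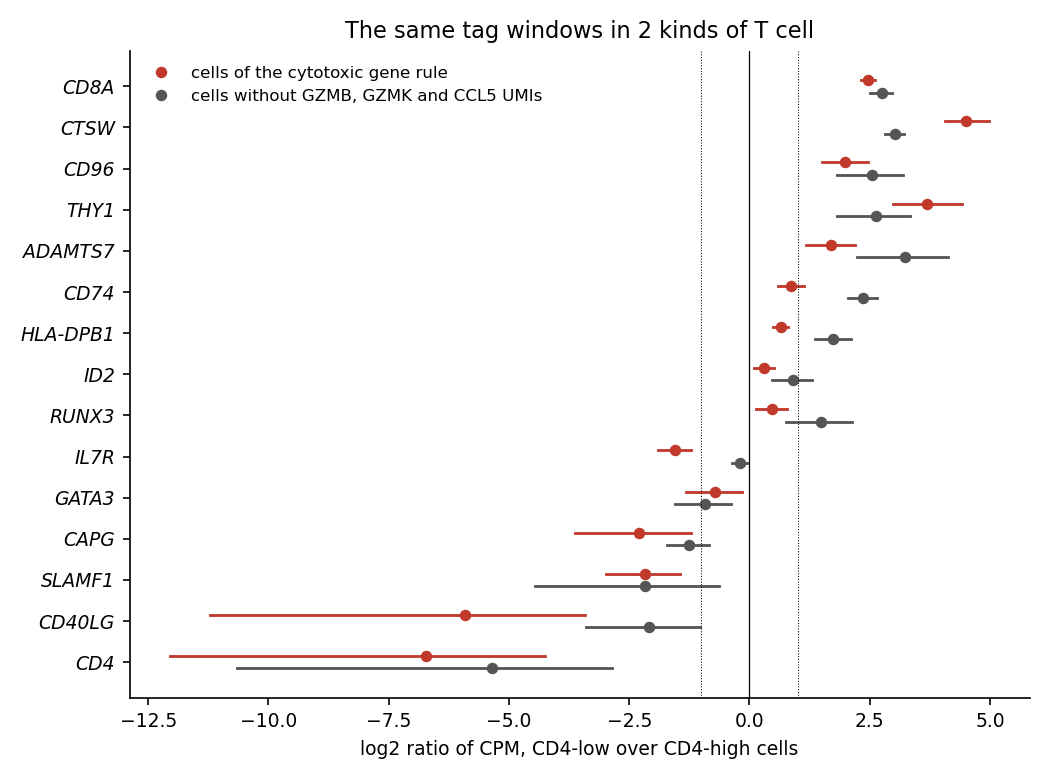
Log2 ratios of CPM of CD4-low over CD4-high cells for selected genes, in cytotoxic cells and in T cells without *GZMB*, *GZMK* or *CCL5* RNA, with exact 95% intervals for counting error. *CD8A*, *CTSW* and *CD96* lie above 0 and *CD4* and *CD40LG* below 0 in both. *IL7R* is at -1.55 in cytotoxic cells and at -0.20 in the others.

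Against both-high cytotoxic cells, 3645 genes passed the minimum with a median log2 ratio of 0.04. In CD4-low cytotoxic cells 28 (0.768%) were called higher and 51 (1.4%) lower. The both-high cells were deeper, and 31.3% of them were among the highest doublet scores. Without those scores the counts fell to 17 higher and 21 lower, and with every cell thinned to 2200 UMIs, to 11 higher and 14 lower, with fewer genes above the minimum.

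Of naive and memory genes 8 of 10 were called lower in CD4-low than in both-high cytotoxic cells. *TCF7*, a factor of naive and memory T cells, was 27.8 CPM (16.4 to 43.9) against 155 CPM (131 to 182), and *IL7R* was 116 CPM against 364 CPM (327 to 404). *LTB* was also called lower, with a log2 ratio of -2.07 (-2.41 to -1.75).

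Of the receptors shared with NK cells, 2 of 5 killer lectin genes and 2 of 7 others were called higher in CD4-low cytotoxic cells and 0 lower. The log2 ratios of these 4 were 1.11 for *KLRD1*, 1.21 for *KLRF1*, 1.33 for *CD96* and 1.05 for *SLAMF7*, a receptor of the SLAM family. *CTSW* was the only one of 11 granule genes called, with 328 CPM against 163 CPM (139 to 191) and a log2 ratio of 1.01 (0.70 to 1.32). *CD8A* had a log2 ratio of 0.80 (0.64 to 0.95), under 2-fold, although the median CD8 tags were 1884 and 1937. *LAG3* was 52.4 CPM (36.3 to 73.3) against 32.4 CPM (22.0 to 46.0), and its intervals overlapped. Outside the lists, *PTMS*, *ZMPSTE24*, *RGS3* and *THY1* had log2 ratios of 1.52, 1.56, 1.36 and 1.44. *ITGA6*, the α6 integrin chain, was lower, with 1 UMI against 51 and a log2 ratio of -5.11 (-10.44 to -2.57).

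Against CD4-low cells without granzyme, which share the tag window, the contrast was far wider. Of 2395 genes tested 596 (24.9%) were called higher in CD4-low cytotoxic cells and 82 (3.42%) lower, and the median log2 ratio was 0.50. Thinning to 2200 UMIs gave 384 higher, and leaving out ribosomal and mitochondrial genes gave 131 lower. The centre of all genes thus lay above 0, and the lists are to be read against it. *GZMB* and *GZMK* chose both groups and *CCL5* the cells without granzyme, so these genes are no result.

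*PRF1* was 554 CPM against 20.4 CPM (8.80 to 40.2) and *GNLY* 631 CPM against 17.8 CPM (7.17 to 36.7). *GZMA* had 0 UMIs in cells without granzyme, and it was 30.7-fold higher against a floor of 3 UMIs for the group, counting error aside. *KLRD1* was 370 CPM against 5.10 CPM (0.617 to 18.4). *TBX21* gave 52 UMIs against 2, and *KLRG1* 112 against 5. The minimum was passed by 5 of 6 killer lectin genes, 7 of 11 effector transcription factors and 9 of 11 S100, annexin and galectin genes, and each of these was called higher. Several passed it only through their UMIs in CD4-low cytotoxic cells, so these counts are a description of the genes seen there.

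*CX3CR1* had 0 UMIs in cells without granzyme and was at least 32.1-fold higher. *HOPX* had a log2 ratio of 6.31 (4.45 to 9.37), *ZEB2*, a factor of terminal effector cells, 5.80 (3.93 to 8.86), and *S100A4* 5.58 (5.13 to 6.06). Among leading genes outside the lists were *RGS9*, a regulator of G protein signalling, and *APOBEC3G*, an antiviral cytidine deaminase, with log2 ratios of 6.73 and 5.25.

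Naive genes ran opposite, with 9 of 10 called lower in CD4-low cytotoxic cells. *CCR7* was 20.04 CPM against 456 CPM (391.7 to 528) and *CD7* 89.4 CPM (67.9 to 116) against 1139 CPM (1036 to 1249). *SFRP5*, a secreted Wnt inhibitor, was 3.08 CPM (0.373 to 11.1) against 250 CPM (203 to 304). *CD27* was the exception, at 412 CPM against 155 CPM (119 to 200).

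The CD4-low cytotoxic cells were checked against markers of other cell types. The 4 markers given for cytotoxic CD8 T cells, *GZMB*, *CD8A*, *KLRD1* and *CCL5*, summed to a median of 9368 CPM per cell (lowest cell 2486, highest 20376), but the rule itself required *GZMB*, which made up 5746 of the 9662 CPM of the whole group. In CD4-high cytotoxic cells, chosen by the same gene rule, the sum over the group was 5826 CPM. Of the 6 NK markers with a row, *NCAM1* was at 0, *FCER1G*, which the rule limited, was at 0, *NCR1* gave 4 UMIs in 2 cells, *TYROBP* 3 UMIs in 1 cell and *SH2D1B* 1 UMI, while *KLRF1* made up 96 of the 104 UMIs. The summed level of these NK markers was 160 CPM in CD4-low and 82.5 CPM in CD4-high cytotoxic cells.

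All 6 B cell markers, of which the rule used *CD79A*, together gave 2 UMIs, the 6 monocyte markers 5, the 5 dendritic cell markers 1, and the 2 erythroid and 4 platelet markers 0. Of the regulatory T cell markers *IL2RA* and *CTLA4* were at 0 and *FOXP3* was set to 0 by the rule, leaving 2 UMIs of *IKZF2*. Of markers of invariant T cells, *TRAV10*, the α segment of natural killer T cells, and *TRBV25-1* were at 0, *ZBTB16*, which encodes their factor PLZF, gave 1 UMI and *SLC4A10* 5 UMIs. *KLRB1*, which many other T cells also express, made up 83 of this list's 89 UMIs, and the list summed to 137 CPM in CD4-low and 162 CPM in CD4-high cytotoxic cells. *TRAV1-2*, another segment on this list, was not among the gene symbols, so invariant T cells that use it could not be checked by it.

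Receptor γ chain RNA was present in part of the cells. *TRGC2*, a constant region of the γ chain, was 213 CPM (179 to 251) in CD4-low cytotoxic cells and 46.8 CPM (39.9 to 54.5) in CD4-high ones, a log2 ratio of 2.19 (1.85 to 2.52). It was seen in 44 of the 186 cells (23.7%), with up to 11 UMIs in a cell, in 46 of 163 both-high cells (28.2%), with up to 10, and in 137 of 890 CD4-high cells (15.4%), with at most 3. Of the 44 cells 25 (56.8%) also had *TRAC* RNA, as did 106 of the 142 cells without *TRGC2* (74.6%). The δ constant region was not analysed here, and *TRDV3*, the only segment with a row that is named for δ alone, was at 0. Segments named for both α and δ were counted with *TRAV*. Of these, *TRAV23DV6* was the leading *TRAV* segment in 4 CD4-low cytotoxic cells and *TRAV38-2DV8* in 1. Reads could be shared with the other γ constant gene, and αβ T cells can transcribe the γ locus, and the lineage of these cells was not tested.

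Leaving out every cell with a *TRGC2* UMI, an alternative chosen after the data had been seen, changed the number of genes called lower against both-high cytotoxic cells from 51 to 32. The same step kept the counts of the main comparison within 1.5 times.

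Segments of the αβ receptor were unevenly used. Of 23 annotated *TRAV* segments, at least 2 UMIs of one were found in 83 CD4-low cytotoxic cells (44.6%) and in 176 CD4-high cytotoxic cells (19.8%). The share was 48.5% in both-high cytotoxic cells and, among T cells without granzyme, 48% in CD4-low and 42.8% in CD4-high ones. *TRAV22* led in 29 of the 83 cells, or 34.9% (24.8 to 46.2%), *TRAV8-6* in 18 (21.7%, 13.4 to 32.1%) and *TRAV9-1* in 10 (12.05%, 5.93 to 21.0%). In CD4-high cytotoxic cells *TRAV22* led in 15.9% (10.8 to 22.2%) and *TRAV8-6* in 1.70% (0.353 to 4.90%) of the assigned cells, and *TRAV12-3* came first in 28.4%.

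*TRAV22* was also the leading segment of both-high cytotoxic cells, at 27.8% (18.3 to 39.1%), and of T cells without granzyme in the CD4-low window, at 14.6% (6.07 to 27.8%), and in the CD4-high window, at 13.9% (12.5 to 15.4%). As RNA, *TRAV8-6* was 119 CPM (93.7 to 148) in CD4-low and 3.97 CPM (2.17 to 6.66) in CD4-high cytotoxic cells, a log2 ratio of 4.90 (4.07 to 5.84). *TRAV22* had a log2 ratio of 2.62 (2.27 to 2.98).

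Only 9 *TRBV* segments were annotated, and 22 CD4-low cytotoxic cells (11.8%) had at least 2 UMIs of one. *TRBV9* led in 5, *TRBV10-1* in 4 and *TRBV24-1* in 4. Both chains were assigned in 13 cells, which held 8 pairs, and the most frequent pair, *TRAV12-3* with *TRBV9*, was seen in 3 cells. Related segments can share reads, no junction sequence was read, and a shared segment does not make cells members of 1 clone.

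Spread among the CD4-low cytotoxic cells was read from the 179 cells that could be thinned to 2200 UMIs. Over 1680 genes with at least 50 UMIs the median ratio of variance to mean was 1.01. For genes with few UMIs per cell this ratio lies near 1 even where cells differ, so it does not show that the cells were alike. Among rows with a symbol, 7SK, a small nuclear RNA, had the largest ratio at 17.3, and its symbol stands on more than 1 row. Ratios were 13.5 for *TRBV24-1*, 8.31 for *TRBV9*, 6.40 for *ACTB*, which encodes β-actin, and 4.07 for *TRAV22*. *TRGV10* and *TRGC2* had 3.96 and 3.63, and *FOS* 3.50. Of the 10 most variable rows 5 had only an identifier.

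*NKG7* was in nearly every cell at 2200 UMIs, with 5 or more UMIs in 73.7%, and *CCL5* had 5 or more in 53.1%. *CD8A* ran from 0 to 13 UMIs with a median of 4 before thinning and was at 0 in 6.70% of thinned cells. *PRF1* was at 0 in 30.2%, *GNLY* in 42.5%, *KLRD1* in 50.3%, *CTSW* in 59.2% and *GZMA* in 70.9%.

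Several cytotoxic genes were often seen in 1 cell. Of *PRF1*, *GNLY*, *GZMA*, *KLRD1* and *CTSW*, at least 3 were seen in 91 of 179 thinned CD4-low cytotoxic cells, or 50.8% (43.3 to 58.4%). The share was 3.81% (2.64 to 5.31%) of 866 CD4-high cells, 27.0% (20.3 to 34.5%) of 163 both-high cells and 1.05% (0.0266 to 5.73%) of 95 CD4-low cells without granzyme. The 5 genes follow the levels given above, so this share restates them per cell.

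**Figure D5:**
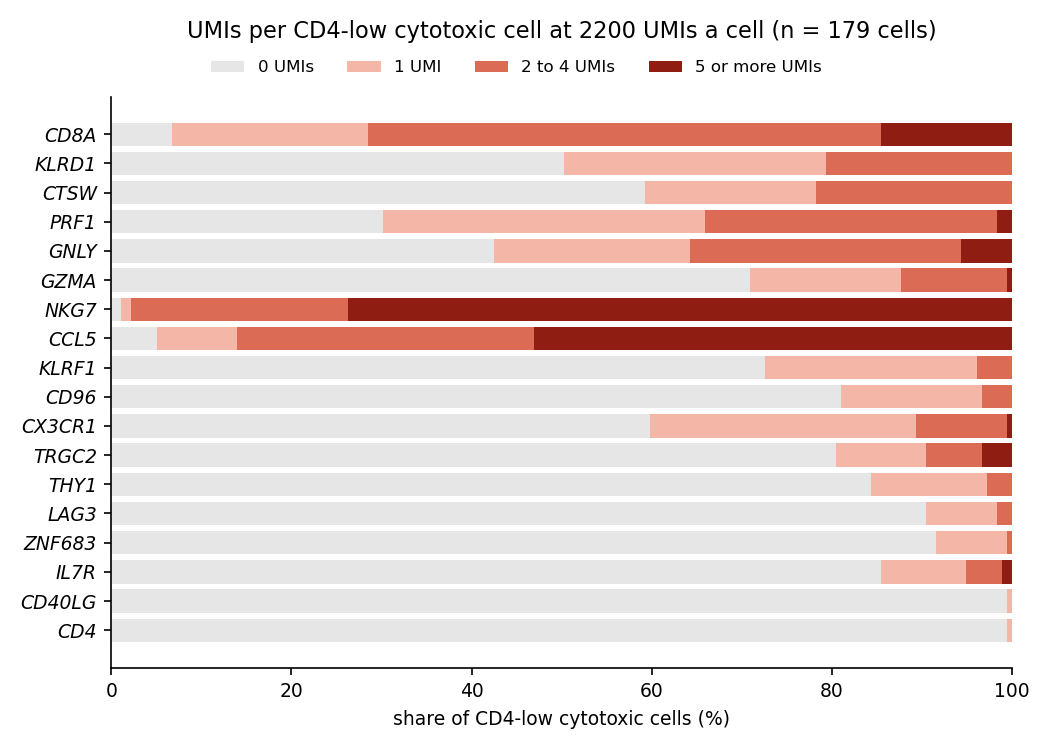
Shares of the 179 CD4-low cytotoxic cells with 0, 1, 2 to 4 or 5 and more UMIs of each gene, each cell thinned to 2200 UMIs. *NKG7* and *CCL5* reach 5 or more UMIs in 73.7% and 53.1% of the cells, *CD8A* is at 0 in 6.70%, and *GZMA* and *TRGC2* are at 0 in 70.9% and 80.4%.

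Divided into 3 equal sets of 62 cells by CD8 tag, with median tags of 1490.5, 1884 and 2377.5 UMIs, the cells did not differ in *CD8A* RNA beyond their intervals, at 1084 CPM (941 to 1243), 1242 CPM (1092 to 1407) and 1132 CPM (1006 to 1269). *CTSW* was 242 CPM (177 to 323), 272 CPM (204 to 354) and 435 CPM (358 to 523) in the same order. *ZNF683* was 10.5 CPM (1.27 to 38.0), 25.1 CPM (8.17 to 58.7) and 84.7 CPM (53.1 to 128). *STMN1*, a microtubule regulator abundant in dividing cells, was 94.7 CPM (56.2 to 150), 90.5 CPM (53.7 to 143.1) and 320 CPM (254 to 396). It was seen in 16, 11 and 18 cells of the sets, and 1 cell of the last set held 27 of its 83 UMIs, so its summed level rests on few cells. *IL7R* was 52.6 CPM (25.2 to 96.8) in the lowest and 154 CPM (110 to 210) in the highest set. The set with the highest tag thus had higher summed levels than the lowest in *CTSW*, *ZNF683* and *IL7R*. In the lowest and highest sets *CTSW* was seen in 21 and 43 cells, *ZNF683* in 2 and 15, and *IL7R* in 9 and 15. The intervals leave out spread between cells, and for *IL7R* the levels rest on few cells. The set with the highest tag was also deeper, with median UMIs of 3045.5, 3156.5 and 3655 over the 3 sets. The part of depth was not tested.

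An *IL7R* UMI was found in 36 of the 186 cells. Median depths were 3378.5 UMIs in these 36 and 3224 in the other 150, and median CD8 tags were 2020.5 and 1832. These 36 had *TCF7* at 79.0 CPM (39.4 to 141) against 13.7 CPM (5.53 to 28.3) in the other 150 and *LTB* at 323 CPM (236 to 432) against 88.4 CPM (64.4 to 118). They had more *CTSW*, 531 CPM (417 to 667) against 273 CPM (229 to 322), more *ZNF683*, 108 CPM (60.3 to 178) against 27.5 CPM (15.0 to 46.1), and a higher summed level of *GNLY*, 905 CPM (754 to 1077) against 556 CPM (493 to 624). A *GNLY* UMI was found in 24 of the 36 cells and in 103 of the 150, which are like shares, so its summed level may rest on few cells. The 36 cells had less *NKG7*, 2750 CPM (2482 to 3040) against 3285 CPM (3129 to 3446), less *GZMB*, 4861 CPM (4502 to 5242) against 5988 CPM (5778 to 6205), and less *S100A4*, 4186 CPM (3853 to 4540) against 5042 CPM (4849 to 5241). *TBX21* was 35.9 CPM (11.7 to 83.8) against 92.3 CPM (67.8 to 123), whose intervals overlap, and *CD8A* did not separate them, at 1056 CPM (892 to 1241) against 1178 CPM (1086 to 1276).

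The 109 cells with a *KLRD1* UMI had *GNLY* at 776 CPM (692 to 868) against 401 CPM (327 to 487) in the 77 without one. *IL7R* was 146 CPM (111 to 189) against 67.5 CPM (39.3 to 108) in the same order. *PRF1* had overlapping intervals, at 555 CPM (484 to 633) against 552 CPM (464 to 652). Median depths were 3300 and 3150 UMIs.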

How the data were processed

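Raw UMI counts per gene and per antibody tag of each barcode were deposited by the authors, without normalization and before their cell filter. The submitters' processing notes name Cell Ranger 3.1.0, STAR 2.5.1b and Seurat 3.1.3, and the methods name the Macaca_fascicularis_5.0 genome. No genome of that build was used here, so no coordinates or sequences are given. The CD4-low cytotoxic cells (the members) and the gene lists were chosen with earlier results of these data known.

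Of 8953 barcodes, 8830 with 200 to 4000 genes and at most 20% of UMIs in 13 mitochondrial genes were kept, and 0 of the 123 removed met the rest of the rule. A CD4 tag of at most 143 UMIs was low and of at least 144 high. The CD8 tag was at least 419 in CD4-low cells, at most 999 in CD4-high cytotoxic cells and at least 1000 in both-high cells. CD4-high T cells without granzyme were taken by the CD4-high cells' tag limits. CPM came from the UMI sum of a group, with an exact Poisson 95% interval. Log2 ratios have intervals from the exact binomial split of the UMIs, and shares have Clopper-Pearson intervals. A group at 0 was set to 3 UMIs. Thinning was to 2200 UMIs per cell, leaving out shallower cells, 7 of them members. Scrublet, run through scanpy 1.11.5 with 6% doublets expected, called 0 doublets, so no cell was removed. Its automatic threshold did not work here, and the top 6% of scores were left out as an alternative. B cells held *CD79A* or *MS4A1* UMIs and no more than 1 UMI in the sum of *TRAC*, *CD3D*, *CD3E* and *CD3G*. They include some cells rich in granule RNA, so the background of cytotoxic genes was read from CD4-low cells without granzyme.

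Named genes are those of 20 lists and 10 marker lists, the 10 unlisted symbols with the highest and the 10 with the lowest log2 ratio in the main comparison and 5 of each kind in the others, the 10 most variable genes and the 3 leading receptor segments. The text gives the leading ones, some listed genes are not reported here, and the unnamed genes were chosen after their values were seen. Of 262 listed genes 228 had a row. *CD8B*, *GZMH*, *GZMM*, *FGFBP2*, *CCL3*, *CCL4*, *KLRC2*, *FCGR3A* and *TRDC* were among the others and were not used here. On simulated counts of 6449 genes for the main comparison, intervals held the true ratio in 96.3%, and the direction was right for 100% of the 101 genes changed 2-fold and of the 99 changed 4-fold. These group sums were drawn from Poisson distributions, the model behind the intervals, without spread between cells. They check the calculation only and cannot show how well the intervals hold for real cells. Python 3.11.15, numpy 2.4.6, scipy 1.17.1, pandas 2.3.3 and matplotlib 3.10.9 were used. Other limits on mitochondrial UMIs, *GZMB*, tags, UMIs per gene and cells, thinning, and removal of ribosomal and mitochondrial genes or of cells by doublet score were tried.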

Additional observations from a re-analysis of the deposited data

How the results depend on the processing

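No paired analysis was possible because all cells came from 1 preparation of 1 animal, and no comparison has a test. A CD4 tag of at most 70 UMIs left 8 members, 0.0906% of kept cells, and moved every count: 886 genes higher and 225 lower against CD4-high, 203 and 180 against both-high, and 17 and 14 against CD4-low cells without granzyme, of which 4 remained. *ZBTB7B* and *ADAM15* turned direction there, at log2 ratios of 1.39 and 1.12. Thinning to 2200 UMIs gave 11 higher and 14 lower against both-high cells and 384 higher against cells without granzyme. Without ribosomal and mitochondrial genes 131 were lower in the latter comparison. A minimum of 20 UMIs gave 68 and 175 against both-high cells and 1129 and 203 against cells without granzyme. A minimum of 100 UMIs gave 18 higher in the main comparison, 8 and 10 against both-high cells, and 294 and 40 against cells without granzyme. With no minimum share of cells the main comparison gave 53 higher and 189 lower. Without the highest doublet scores the counts against both-high cells were 17 and 21, and without cells with *TRGC2*, an alternative chosen after seeing the data, 32 were lower. The causes were not tested. Of 1925 values of single genes over the alternatives 1810 stayed within counting error, 113 moved, 85 of these at a CD4 tag of at most 70, and 2 reversed. Most alternatives reused nearly the same cells, so their values are not independent of the main ones. At a CD4 tag of at most 70, 46 of 133 values stayed. Among the listed genes called in the main comparison, *CCL5* fell under 2-fold in 4 of 12 alternatives, *GZMA*, *KLRF1* and *LGALS3* in 2 of 12, *CD4* and *ZBTB7B* in 1 of 12, *IFNGR1* in 5 of 11 and *NCR3* in 1 of 11; for *CD4* this was the 8-cell set, where a bound from 0 UMIs was used. Genes under 50 UMIs in both groups together entered no count at the main setting.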
